A study of Sus scrofa with 23 samples.

Results

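Cloned morulae of the pig were compared with morulae flushed from sows, to find the genes that differed the same way in the embryos of both donor cell lines. The comparison used 3 of the 23 libraries of the series. IV-D morulae were Duroc embryos from artificial insemination, flushed from the genital tract, NT-D morulae were cloned from ear fibroblasts of 1 Duroc boar, and NT-LW morulae were cloned from ear fibroblasts of 1 boar of the Chinese breed Laiwu. That Duroc boar also sired the IV-D embryos. Both kinds of clone were made by somatic cell nuclear transfer, in which a fibroblast is fused with an oocyte whose own nucleus was removed, and both used oocytes matured in vitro from hybrid sows and were then cultured in vitro. A cloned embryo is therefore male and carries the cytoplasm and mitochondria of a hybrid oocyte, while the IV-D pool held embryos of both sexes from a Duroc sow. Each library was made from a pool of embryos and there was 1 library for each condition. The effects of cloning, oocyte source, maternal breed, culture and sex cannot be told apart here, no test between conditions was possible, and a lower level of a transcript cannot be told apart from fewer embryos or cells holding it.

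The morula is the stage at which the blastomeres compact, form the first junctions and begin to divide into the inner cells and the outer cells that become trophectoderm. In the pig it follows the main activation of the embryonic genome, during which the messages stored in the oocyte are degraded and replaced. In a clone the new transcripts come from a somatic nucleus, in which germ line and early embryonic genes had been silent and often methylated, and the embryo must reopen them.

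The deposited table held 8603 genes, given as FPKM, the fragments per kilobase of gene in a library scaled to 1000000 counted fragments. By its name it lists differentially expressed genes of the whole series, so it is not a full transcriptome. Depth, recovered from the steps of the values, was 21077697 fragments in the IV-D morula library, 18896560 in NT-D and 17635598 in NT-LW. A gene was called when log2(FPKM + 1) differed by more than 1, a fold change of about 2 in well expressed genes, in both clones and in the same direction, with at least 1 FPKM in 1 of the 2 libraries of each comparison. Of the 7305 genes that reached this level in both comparisons, 359 were higher in both clones (4.91%) and 114 were lower in both (1.56%). Counted alone, NT-D morulae had 1467 genes higher (18.7% of 7854) and 305 lower (3.88%), and NT-LW morulae had 860 higher (11.6% of 7401) and 301 lower (4.07%). Both comparisons use the same IV-D library, so any peculiarity of that library enters every shared call.

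The clones stood above the in vivo library as a whole. Over tested genes the median differences on the log2(FPKM + 1) scale were 0.22 (NT-D) and 0.21 (NT-LW), and median-ratio scaling of the 3 libraries brought it to -0.05 and -0.01. Under that scaling 241 genes were higher (3.29%) and 193 lower (2.64%) in both clones, against 569 (7.38%) and 118 (1.53%) after scaling each library to the same sum. NT-D alone had 1151 higher (14.7%) and 583 lower (7.45%) under median-ratio scaling and 1831 (22.4%) and 333 (4.07%) under sum scaling. The counts for NT-LW were 582 (7.85%) and 461 (6.22%) under the former and 1190 (15.3%) and 321 (4.12%) under the latter. The genes called under all 3 scalings, named stable below, were 241 higher (3.3%) and 111 lower (1.52%). Of the 359 higher genes 287 had a gene symbol, as had 82 of the 114 lower genes. Between the 2 clones 255 of the higher and 93 of the lower genes lay within 2-fold of each other. Of the higher genes 81 were over 2-fold higher in NT-D than in NT-LW and 23 were the reverse. Over the 7895 genes compared the counts were 6224 within 2-fold, 1117 higher in NT-D and 554 the reverse.

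**Figure D1:**
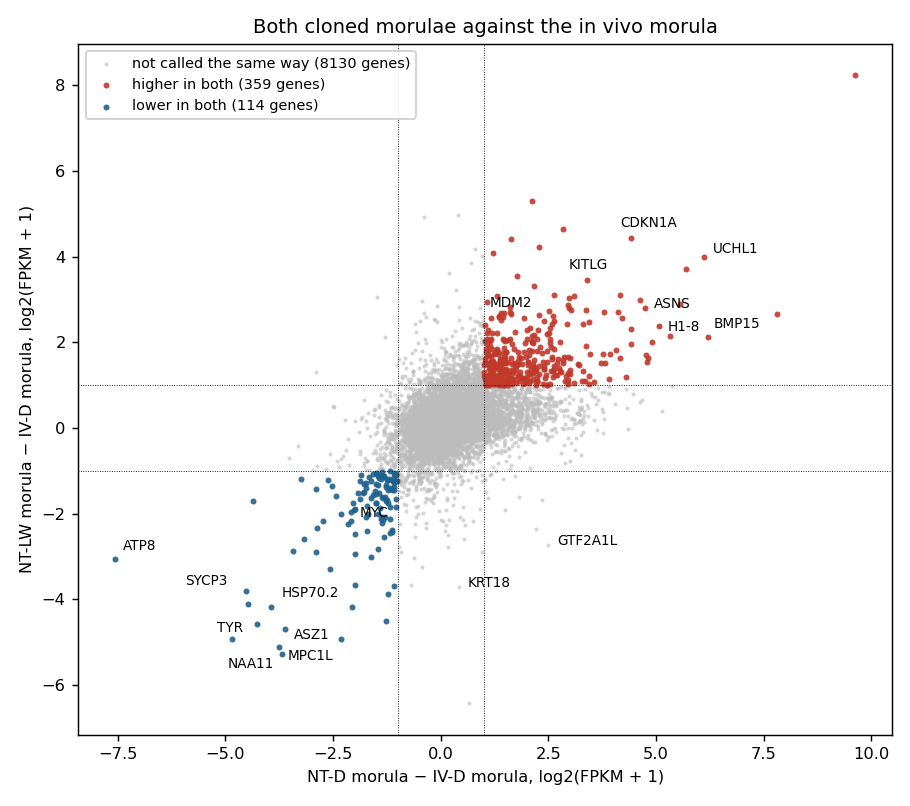
Difference from the IV-D morula library in NT-D (horizontal axis) and NT-LW (vertical axis), log2(FPKM + 1), for all 8603 genes, 1 point per gene. The 359 genes higher and 114 genes lower in both clones lie outside the dotted lines at 1 and -1, and the point at the upper right is the gene without a symbol that reached 35077 FPKM in NT-D.

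Among the IV-D libraries, the morula was the one most like each cloned morula. Across the 8603 genes the NT-D morula correlated best, among the IV-D libraries, with the IV-D morula (Pearson r = 0.923), ahead of IT (0.896) and 8-cell (0.869), and so did the NT-LW morula (0.952, against 0.917 for IT and 0.915 for 8-cell). IT is the part of the cut blastocyst that holds the inner cell mass with some trophectoderm, and TE is the part with trophectoderm only. The IV-D morula itself correlated more with IV-D IT (0.956) than with the NT-D (0.923) or NT-LW morula (0.952). Whether the clones were of the same stage as the IV-D morulae was not tested. All of these are correlations across genes, which are not independent. Of the morula and blastocyst markers in the table, NANOG, a pluripotency factor, was at 7.73 FPKM in IV-D, 5.55 in NT-D and 6.75 in NT-LW morulae. TEAD4, the factor that opens the trophectoderm programme, was at 16.2, 19.2 and 14.3 FPKM in the same order (IV-D, NT-D, NT-LW, used from here on), and GATA3, a trophectoderm factor, at 1.497, 3.17 and 1.59. CDH1, the cadherin of compaction, was at 48.3, 35.7 and 43.7, and GATA6, a primitive endoderm factor, at 66.7, 71.4 and 64.3. None of these 5 genes was called in either clone. KLF17 was at 12.4, 16.5 and 14.8 FPKM. The epithelial keratins stood apart in NT-LW alone, with KRT8 at 142, 161 and 19.8 and KRT18 at 199.9, 269 and 14.5 FPKM. POU5F1, SOX2 and CDX2 were not analysed here.

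Markers of other cells were checked because a clone could hold RNA of its donor or of the oocyte. The table held 15 fibroblast markers, of which 7 reached the minimum level in both comparisons. Of these 7, 2 were higher in both clones, beside 4.91% of all tested genes. Counted alone, NT-D had 5 of the 15 higher and 0 lower, and NT-LW 3 higher and 2 lower. The 2 shared genes were the intermediate filament gene VIM at 0.411, 2.81 and 2.24 FPKM and S100A4, which codes for a calcium-binding protein, at 0, 1.76 and 5.42. The collagen COL1A1 was near 0 in all 3 libraries (0, 0.377 and 0.0539 FPKM), as were COL1A2 (0.0101, 0.583 and 0.0961) and COL3A1 (0.00988, 0.0882 and 0.0472). The summed level of the 15 was 45.3, 117 and 61.6 FPKM. Of these sums 11.2, 55.3 and 1.38 came from PDPN, a gene that was also high in IV-D TE. The 4 cumulus cell markers in the table gave no call in both clones, with HAS2 at or near 0 (0, 0 and 0.242) and a sum of 68.4, 122 and 263 FPKM, most of the last from FST. Among 5 markers of blood and genital tract cells AIF1, a macrophage gene, was higher in both (1.02, 35.4 and 16.4), while the haemoglobin gene HBB was low (0.160, 0.476 and 1.53). AIF1 was also high in the IV-D TE library, at 81.2 FPKM.

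The gene with the largest shared difference had no symbol. ENSSSCG00000035520, whose values fit a length of 225 bp, was at 43.4 FPKM in the IV-D morula, 35077 in NT-D and 13368 in NT-LW. It was as far apart in the oocytes, with 5199.9 FPKM in the in vitro matured oocytes used for cloning and 4.17 in the in vivo oocytes of Duroc sows. All 15 libraries of cloned embryos and their oocytes lay between 3182 and 35929 FPKM, and the 8 IV-D libraries between 4.17 and 55.9. Among all the higher genes few differed in the oocytes too. Of the 359 higher genes 24 (6.69%) were also higher in the oocytes used for cloning than in the in vivo oocytes, where 13.3% of tested genes were higher, and 2 of the 114 lower genes (1.75%) were lower there, against 1.51%.

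Some targets of p53, the transcription factor that responds to DNA damage and other stress, were higher in both clones. The list held 16 genes of which 11 were in the table, and 6 of the 11 were higher in both clones, 5 of them under all 3 scalings, while 4.91% of all tested genes were higher. All 11 reached the minimum level in both comparisons. A gene could reach it through the clones in which it was high, and 3 of the 11 were under 1 FPKM in IV-D. The median differences of the 11 were 1.18 (NT-D) and 2.33 (NT-LW), beside 0.23 and 0.18 over the whole table. CDKN1A, the p21 inhibitor of cyclin-dependent kinases (chromosome 7, 32354776 to 32363771, build Sscrofa11.1), was at 0.601 FPKM in IV-D, 33.2 in NT-D and 33.5 in NT-LW morulae. It was 55.2-fold (95% interval 25.1 to 152) higher in NT-D and 55.8-fold (95% interval 25.3 to 153) higher in NT-LW, where the interval is an exact binomial one on the fragments and covers counting error only. No more than 6 fragments of CDKN1A were counted in the IV-D library, against 297 and 280 in the clones. MDM2, the ubiquitin ligase that degrades p53 (chromosome 5, 33105717 to 33137602), was at 16.4, 91.1 and 97.6 FPKM. That was 5.55-fold (95% interval 5.21 to 5.92) and 5.94-fold (95% interval 5.58 to 6.33) higher in the 2 clones. ZMAT3, a zinc finger RNA-binding protein, was at 2.37, 33.9 and 21.7, and TP53INP1, a p53-induced regulator of cell death and autophagy, at 0.816, 13.3 and 11.6. The death receptor gene FAS was at 0.746, 7.47 and 9.88 and the sestrin gene SESN1 at 9.08, 21.9 and 45.8. SESN1 was not called under median-ratio scaling.

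The other 5 members in the table went different ways. GADD45B, a growth arrest gene, was lower in both clones at 8.62, 1.82 and 2.90 FPKM. PMAIP1, which codes for the death protein NOXA, was called in NT-LW alone (13.6, 19.6 and 72.7). CCNG1 was higher in NT-D alone (66.4, 144 and 118), with log2 differences of 1.10 and 0.81, and PERP (32.2, 31.9 and 36.95) and GADD45A (8.35, 11.13 and 8.68) were called in neither clone. Apoptosis genes outside this role held 1 call in 14, APAF1, the scaffold of the apoptosome, at 1.41, 8.36 and 4.10 FPKM, which was not stable.

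A few further genes reported to respond to p53 were among the higher ones, and were picked out after their values were seen. RRM2B, the small ribonucleotide reductase subunit used in DNA repair, was at 1.80, 49.6 and 7.73 FPKM, and KITLG, the ligand of the receptor KIT, at 2.66, 37.4 and 39.1. KITLG was 14.04-fold (95% interval 12.5 to 15.8) higher in NT-D and 14.7-fold (95% interval 13.1 to 16.5) higher in NT-LW.

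The p53 targets were followed through the later stages. In IV-D embryos CDKN1A stood at 1.44 FPKM at 8-cell, 0.601 at morula, 3.70 in IT and 14.96 in TE. In NT-D it stood at 0.875, 33.2, 16.03 and 13.1, and in NT-LW at 6.45, 33.5, 14.2 and 5.50. The clones were thus highest at the morula and no longer above IV-D in TE. Of the 6 targets, 2 were also higher in both clones at 8-cell (SESN1 and TP53INP1), 4 in IT (CDKN1A, MDM2, TP53INP1 and ZMAT3) and 0 in TE, while 8.95%, 6.13% and 1.68% of tested genes were higher in both clones at these stages.

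**Figure D2:**
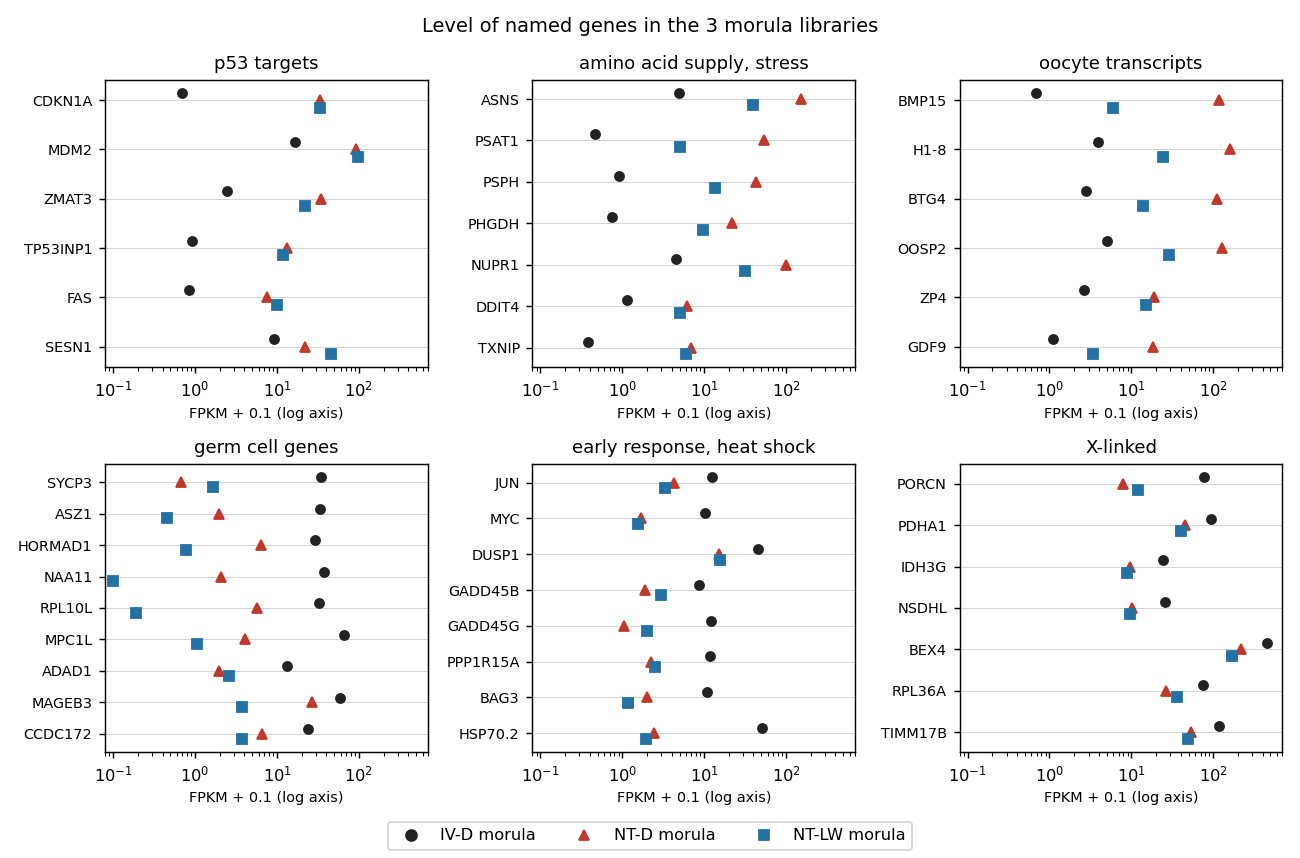
FPKM + 0.1 (log axis) of named genes in the IV-D, NT-D and NT-LW morula libraries, 1 point per library. In the upper panels both clones lie to the right of IV-D, as for CDKN1A at 33.2 and 33.5 against 0.601 FPKM, and in the lower panels to the left of it.

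Genes for making serine and asparagine were also higher. They belong to the response by which cells meet a shortage of amino acids, in which the factor ATF4 switches on synthesis and transport. Of the 17 genes listed for amino acid and one-carbon supply 16 were in the table, and 4 were higher in both clones, all 4 under each scaling, beside 4.91% of all tested genes. The minimum level in both comparisons was reached by 12 of the 16. A gene could reach it through the clones in which it was high, and 9 of the 16 were under 1 FPKM in IV-D. The 4 higher genes were the 3 enzymes of serine synthesis and asparagine synthetase. PHGDH, the first enzyme of the serine pathway, was at 0.647 FPKM in IV-D, 21.7 in NT-D and 9.69 in NT-LW morulae. PSAT1, the second, was at 0.367, 53.6 and 5.04 FPKM and PSPH, the last, at 0.800, 43.3 and 13.3. ASNS, asparagine synthetase (chromosome 9, 77318341 to 77336290), was at 4.76, 153 and 39.4, which was 32.1-fold (95% interval 27.5 to 37.6) higher in NT-D and 8.27-fold (95% interval 7.03 to 9.77) higher in NT-LW. All 4 were higher in NT-D than in NT-LW, and 10 of the 16 members were called higher in NT-D against 4 in NT-LW, where 18.7% and 11.6% of all tested genes were higher. CTH, cystathionine gamma-lyase, was the highest member and was lower in the clones (366, 147 and 222 FPKM), beyond the threshold only in NT-D. The regulators listed with these genes were split. Of 7 in the table, 1 was higher in both clones (NUPR1) and 1 lower, beside 4.91% and 1.56% of all tested genes. The lower one was PPP1R15A, at 11.6, 2.15 and 2.41 FPKM, and both calls were stable. The 15 chaperones of the endoplasmic reticulum in the table held no shared call.

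The same 4 genes were high in the in vivo trophectoderm. ASNS was at 15.1 FPKM in IV-D 8-cell embryos, 4.76 in the morula, 7.60 in IT and 664 in TE. In IT the clones were at 435 (NT-D) and 516 (NT-LW). All 4 genes were higher there in both clones, against 6.13% of tested genes. In TE none of the 4 was called in both clones, where 1.68% of tested genes were higher and 2.70% lower. NUPR1, a small stress-induced chromatin protein, was also higher in both clones at these stages, with 4.47, 100.4 and 31.6 FPKM at the morula and 21.5, 1877 and 1424 in IT. Its level in IV-D TE was 1042 FPKM.

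Genes of oxygen and redox state gave a mixed picture. The table held 7 hypoxia response genes, and those higher in both clones were HIF1A, the oxygen-sensing factor, at 3.46, 15.01 and 10.01 FPKM, and DDIT4, an inhibitor of growth signalling, at 1.04, 6.08 and 4.99. LDHA, which makes lactate, was the only one of 14 glycolysis genes with a shared call (27.1, 79.8 and 69.96), and PDK4, which holds pyruvate back from the mitochondria, was at 0.587, 12.5 and 12.5. Among 10 genes of NRF2, the factor of the oxidant response, 3 were higher in both, namely TXNRD1 (17.1, 36.7 and 60.96), GSR (1.05, 6.21 and 3.85) and SRXN1 (1.36, 4.68 and 4.39), the first of them not under median-ratio scaling. In both clones 4.91% of all tested genes were higher. In NT-D 9 of these 10 were higher and in NT-LW 3, beside 18.7% and 11.6% of all tested genes. The superoxide dismutases went apart. SOD1, the cytosolic enzyme, was higher (5.59, 17.6 and 26.2) and SOD2, the mitochondrial enzyme, was lower (47.8, 18.6 and 7.33). TXNIP, the inhibitor of thioredoxin, was at 0.283, 6.75 and 5.93 FPKM, the glutathione transferase GSTM3 at 11.09, 28.8 and 42.5 and the glutathione peroxidase GPX6 at 32.4, 259 and 243.

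Most listed transcripts of the oocyte were higher in NT-D, and a smaller number in both clones. Such messages are made while the oocyte grows and are removed as the embryo turns on its own genes. Of 30 listed transcripts 19 were in the table, and 6 were higher in both clones, 5 of them under all scalings, with 0 lower, beside 4.91% and 1.56% of all tested genes. The minimum level in both comparisons was reached by 13, and a gene could reach it through the clone in which it was high. In NT-D 17 of the 19 were higher and in NT-LW 6, beside 18.7% and 11.6% of all tested genes. BMP15, an oocyte growth factor on the X chromosome, was at 0.585 FPKM in IV-D, 116 in NT-D and 5.90 in NT-LW morulae, 199-fold (95% interval 122 to 348) and 10.1-fold (95% interval 5.99 to 18.1) above IV-D. H1-8, the linker histone of the oocyte, was at 3.82, 160.2 and 24.2 FPKM, and BTG4, an adaptor for the removal of maternal messages, at 2.72, 111 and 13.98. OOSP2, an oocyte-secreted protein, was at 4.99, 126 and 28.8, ZP4, of the zona pellucida, at 2.56, 18.7 and 15.2, and GDF9, the partner of BMP15, at 1.0103, 18.5 and 3.34. Among those past the threshold in NT-D alone were KPNA7 (1.008, 48.4 and 2.06), an importin of the oocyte, the meiotic kinase WEE2 (4.54, 72.8 and 8.89) and MOS (1.36, 17.6 and 2.54), the kinase that holds the egg at metaphase.

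The summed level of the 19 was 48.7 FPKM in the IV-D morula, 758 in NT-D and 128 in NT-LW. At 8-cell the sums were 155, 926 and 1288, so both clones held more of these transcripts than IV-D already then. All 6 shared genes were higher in both clones at 8-cell, where 8.95% of tested genes were higher. From 8-cell to morula the NT-D sum was lower, but 14 of the 19 were higher in the NT-D morula than in NT-D 8-cell embryos, against 1 in NT-LW and 2 in IV-D. Over the whole table the morula was the higher of the pair for 5579 of 8603 genes in NT-D, 4764 in NT-LW and 4051 in IV-D. BMP15 went from 48.4 to 116 FPKM in NT-D and from 56.8 to 5.90 in NT-LW. Whether the NT-D pool held an embryo of an earlier stage was not tested. In IT the sums were 82.3, 291 and 368. The excess of the clones lay in the 14 listed maternal factors (78.9, 289 and 366). It was not seen in the 5 listed zona and secreted genes (3.44, 1.56 and 1.97). None of the 6 shared genes was higher in both clones in IT, and H1-8 and BTG4 were lower, against 6.13% and 10.6% of tested genes.

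The 359 higher genes as a whole leaned to the first stages of in vivo development. With the morula left out, 252 of them (70.19%) had their highest IV-D value between the oocyte and the 4-cell embryo, as had 47.7% of all 8603 genes. For 76 of them (21.2%) it was the oocyte, against 9.40% of all genes. The 114 lower genes leaned the other way, with 45 (39.5%) highest at 8-cell and 34 (29.8%) in IT, against 21.3% and 16.8% of all genes. The rule favours higher genes that are low, and lower genes that are high, in the IV-D morula. That library correlated more with IV-D 8-cell, IT and TE (Pearson r = 0.919, 0.956 and 0.881) than with the IV-D oocyte (0.384). Such leanings can follow from the rule alone, and all 8603 genes are not a matched background. Without the genes whose highest IV-D value, the morula included, was in the oocyte, 1-cell or 2-cell library, 175 higher and 104 lower genes remained.

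**Figure D3:**
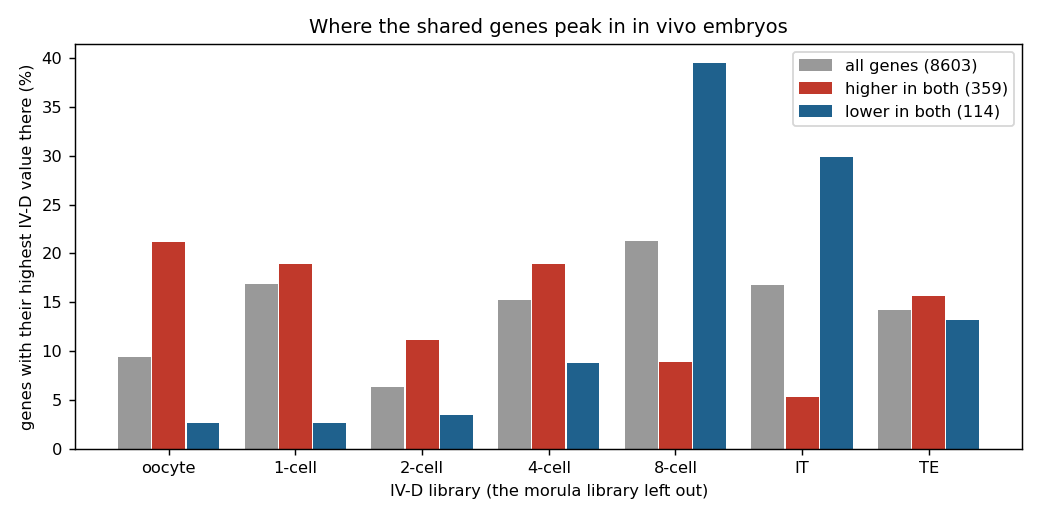
Share of genes (%) whose highest value among the 7 IV-D libraries other than the morula was in the library named below, for all 8603 genes (grey), the 359 higher (red) and the 114 lower genes (blue). The red bar is above the grey one for the oocyte (21.2% against 9.40%) and the blue bar above it for 8-cell (39.5% against 21.3%). The genes were picked with the IV-D morula value, so these leanings can follow from the rule.

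Some germ cell genes were lower in both clones. The group was formed after the values were seen, from a list of 67 genes of meiosis, of the piRNA pathway that silences transposons, and of testis-expressed genes, of which 38 were in the table and 28 reached the minimum level in both comparisons. Of the 38, 9 were lower in both clones, all 9 under each scaling, and 0 were higher, beside 1.56% of all tested genes that were lower. Counted alone, NT-D had 9 of them lower and 8 higher, and NT-LW 10 lower and 1 higher. A direction for the whole list cannot be read from this, since 5 of the 9 came from the 7 testis-expressed genes, which had been added to the list with their values known. SYCP3, a core protein of the synaptonemal complex (chromosome 5, 82492744 to 82501068), was at 34.8 FPKM in IV-D, 0.572 in NT-D and 1.58 in NT-LW morulae. It was lower by 60.8-fold (95% interval 29.3 to 152) in NT-D and 22.1-fold (95% interval 13.8 to 37.6) in NT-LW. HORMAD1, a protein of the meiotic chromosome axis (chromosome 4, 98447298 to 98469650), was at 29.3, 6.25 and 0.679 FPKM. ASZ1, a piRNA pathway protein on the mitochondria of germ cells (chromosome 18, 28859140 to 28910927), was at 33.8, 1.85 and 0.357, and NAA11, a germ cell copy of an amino-terminal acetyltransferase (chromosome 8, 138324566 to 138333101), at 37.4, 1.99 and 0.

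The bases just before the starts of these 4 genes are shown because the genes were lower together and germ cell promoters are known for silencing by CpG methylation. Each sequence is the 250 bases before the RefSeq gene start in Sscrofa11.1, on the strand of the gene (plus for all 4), 5′ to 3′, with every CG in capitals.
ASZ1, chr18:28858890-28859139: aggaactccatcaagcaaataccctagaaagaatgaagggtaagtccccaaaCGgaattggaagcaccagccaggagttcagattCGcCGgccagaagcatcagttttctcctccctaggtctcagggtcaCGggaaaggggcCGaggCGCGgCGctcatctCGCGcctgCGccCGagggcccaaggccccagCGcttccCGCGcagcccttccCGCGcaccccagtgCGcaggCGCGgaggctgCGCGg
NAA11, chr8:138324316-138324565: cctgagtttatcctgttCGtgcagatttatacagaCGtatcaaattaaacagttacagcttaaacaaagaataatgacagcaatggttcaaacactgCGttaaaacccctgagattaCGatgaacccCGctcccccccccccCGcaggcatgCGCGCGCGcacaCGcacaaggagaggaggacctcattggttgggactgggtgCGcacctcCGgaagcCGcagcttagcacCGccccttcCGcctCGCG
HORMAD1, chr4:98447048-98447297: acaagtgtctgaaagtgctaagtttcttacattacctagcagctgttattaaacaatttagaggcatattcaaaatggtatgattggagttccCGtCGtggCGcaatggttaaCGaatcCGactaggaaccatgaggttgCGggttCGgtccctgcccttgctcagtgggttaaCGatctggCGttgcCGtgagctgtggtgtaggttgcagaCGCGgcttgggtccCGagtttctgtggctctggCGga
SYCP3, chr5:82492494-82492743: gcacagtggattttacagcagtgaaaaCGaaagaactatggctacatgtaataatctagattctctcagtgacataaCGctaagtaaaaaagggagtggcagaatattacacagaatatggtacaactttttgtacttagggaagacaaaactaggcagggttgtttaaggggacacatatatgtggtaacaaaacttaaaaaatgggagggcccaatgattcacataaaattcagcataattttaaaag
The windows held 22, 18, 14 and 2 CG. The part of the HORMAD1 window with most of its CG closely resembled part of the window before ZC3HAV1, a gene higher in both clones. Those CG may thus lie in a dispersed repeat, and repeats were not set apart in any window. Over all 9 lower germ cell genes the count ran from 2 to 25 with a median of 7, against a median of 16 over 6907 genes of the table with such a window and 15 over the 29 germ cell genes not called. The 9 genes were thus not richer in CG than the rest of the table. The 6-base E-box CACGTG, searched on both strands, was in 0 of the 9 windows and in 7.98% of all, and GGCGGGAA, an E2F-type sequence, in 0 of the 9 and in 4.13% of all. The full p53 consensus, 2 half-sites at most 1 base apart, was in 0 windows of the 6 higher p53 targets and in 1 of the 6907. So rare a sequence could not tell 6 targets from other genes, and bases outside these windows were not searched. A half-site was in 1 of the 6 windows and in 5.26% of all. No methylation was measured.

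Of the other lower germ cell genes, RPL10L, a testis copy of a ribosomal protein gene, was at 32.1, 5.66 and 0.0879 FPKM. ADAD1, a testis RNA-binding protein, was at 13.1, 1.85 and 2.51 and CCDC172 at 23.5, 6.51 and 3.68. MPC1L, a testis copy of the mitochondrial pyruvate carrier, was at 66.5, 3.99 and 0.951 and MAGEB3 at 58.1, 26.8 and 3.63. Both MPC1L and MAGEB3 are X-linked and are among the 14 X-linked genes lower in both clones. The copies RPL10L, MPC1L and NAA11 resemble their parent genes, so reads may have been shared between them. Genes of the list outside the call included MSH4, of meiotic recombination (103, 74.2 and 95.9), and the germ cell helicase DDX4 (3.99, 2.17 and 3.71).

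In oocytes these genes had been closer between the groups, and at 8-cell they differed. SYCP3 was at 95.97 FPKM in in vivo oocytes and 68.3 in the oocytes used for cloning, and HORMAD1 at 74.2 and 57.99. At 8-cell SYCP3 was at 91.996, 10.9 and 8.77 and HORMAD1 at 81.9, 4.46 and 4.59, and all 9 genes were lower in both clones, where 13.5% of tested genes were lower. In IT 4 of the 9 were lower (ASZ1, HORMAD1, NAA11 and RPL10L), and in TE 4 (ASZ1, CCDC172, HORMAD1 and NAA11), against 10.6% and 2.70% of tested genes. ASZ1 stood at 56.2, 1.72 and 11.4 FPKM in IT and 29.4, 1.03 and 3.89 in TE. SYCP3 lay above IV-D in both clones in IT, at 13.05, 24.8 and 23.6, but within the threshold, so it was not called there.

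TYR, the pigment enzyme tyrosinase (chromosome 9, 22517047 to 22604290), had the largest shared deficit among genes with a symbol. It was at 22.9 FPKM in IV-D, 0.245 in NT-D and 0 in NT-LW morulae, with 941, 9 and 0 fragments. A single gene without a symbol went beyond it, ENSSSCG00000008473, at 29.4, 0.0517 and 0 FPKM. Against a floor of 3 fragments per library TYR was at least 262-fold lower in NT-LW. TYR was lower in both clones at 8-cell and in the blastocyst parts too, with 52.9, 0 and 0.157 FPKM at 8-cell, 22.3, 3.42 and 0.621 in IT and 34.8, 0.198 and 0 in TE. Oocytes of both sources held some TYR (5.95 in vivo and 9.06 for cloning). EFHD1, a mitochondrial calcium-binding protein, had a like course to the morula, with 47.9, 1.49 and 1.88 at 8-cell and 14.9, 1.17 and 2.18 at morula, and was near 0 in IT of all groups (0.179, 0.0684 and 0.0674).

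Some early response genes were lower in both clones, in a list also formed after the values were seen. Early response genes are switched on within minutes of growth factors or handling and code for short-lived messages. Of 42 listed genes 26 were in the table, of which 24 reached the minimum level, and 6 were lower and 1 was higher in both clones, each under all scalings, beside 1.56% lower and 4.91% higher of all tested genes. The median difference of the 26 was -0.34 in both clones. MYC, the growth factor-induced transcription factor, was at 10.02, 1.60 and 1.46 FPKM, 6.28-fold (95% interval 4.51 to 8.93) and 6.86-fold (95% interval 4.82 to 10.05) below IV-D. JUN, of the AP-1 complex, was at 12.2, 4.21 and 3.23, and the phosphatase DUSP1, which turns off its kinases, at 45.1, 15.1 and 15.6. GADD45G, a stress sensor, was at 12.04, 0.959 and 1.90, and PPP1R15A, which restores translation after stress, at 11.6, 2.15 and 2.41. GADD45B completes the 6. IER3 went the other way (3.06, 61.01 and 12.5), and it was an oocyte message in IV-D (104 FPKM). FOS (23.1, 12.6 and 28.7), ATF3 (8.62, 12.5 and 13.3) and KLF4 (42.8, 25.2 and 36.1) were called in neither clone. The 15 heat shock chaperones in the table were split, with 1 lower (BAG3) and 1 higher (HSPB1) in both clones. Outside that list HSP70.2, an inducible HSP70 gene (chromosome 7, 23925929 to 23927854), was at 50.7, 2.37 and 1.85 FPKM, 21.4-fold (95% interval 18.4 to 25.03) and 27.5-fold (95% interval 23.04 to 33.01) below IV-D, but has near-identical copies that may share its reads. Its cochaperone BAG3 was at 10.6, 1.92 and 1.09. The small heat shock gene HSPB1 was higher (0.488, 15.1 and 7.26).

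HSP70.2 and JUN were highest in IT among the later in vivo libraries. HSP70.2 was at 2.38 FPKM in IV-D 8-cell embryos, 50.7 in the morula, 262 in IT and 15.96 in TE, while every clone library of these stages was between 0.396 and 6.67. JUN took the same course in IV-D, with 0.522, 12.2, 43.8 and 3.55 FPKM. At 8-cell 3 of the 6 early response genes were lower in both clones (DUSP1, GADD45G and PPP1R15A) and JUN was higher, where 13.5% and 8.95% of tested genes were called. In IT all 6 were lower, against 10.6% of tested genes. In TE none was called in both, where 1.68% of tested genes were higher and 2.70% lower. IV-D embryos were flushed from uteri removed after death, and clones were taken from culture. The part of collection in these genes cannot be told apart from that of cloning.

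X-linked genes were lower relative to autosomal ones. Clones were male and the IV-D pool held both sexes. Of 212 X-linked genes tested, 14 were lower in both clones, 13 of them under all scalings, and 3 higher, where 1.56% and 4.91% of all tested genes were called. Among the 14 were PORCN, which lipidates WNT proteins (77.3, 7.70 and 12.1 FPKM), PDHA1, a subunit of pyruvate dehydrogenase (94.8, 45.5 and 40.03), IDH3G, of the citric acid cycle (24.3, 9.55 and 8.81), and NSDHL, of cholesterol synthesis (25.8, 10.1 and 9.64). BEX4 (459, 216 and 169), TIMM17B, of the mitochondrial import channel (117, 53.8 and 48.7), and the ribosomal protein gene RPL36A (75.96, 26.8 and 35.6), which has similar copies elsewhere, also belonged to them. So did the germ cell genes MPC1L and MAGEB3. Over the 170 X-linked genes at 5 FPKM or more in 1 of the 3 morula libraries the median differences were -0.44 (NT-D) and -0.26 (NT-LW), and over 4693 autosomal genes 0.15 and 0.23. Below 0 in both clones were 56.5% of the X-linked and 19.01% of the autosomal genes. At 8-cell the medians were -0.68 and -0.70 for the X and -0.12 and -0.09 for the autosomes. In IT they were -0.06 and -0.06 against -0.13 and -0.09, so that the gap was seen at 8-cell and morula and not in IT. PORCN was 10.04-fold (95% interval 8.90 to 11.4) and 6.40-fold (95% interval 5.78 to 7.10) below IV-D. Without the sex chromosomes 355 higher and 100 lower genes remained.

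**Figure D4:**
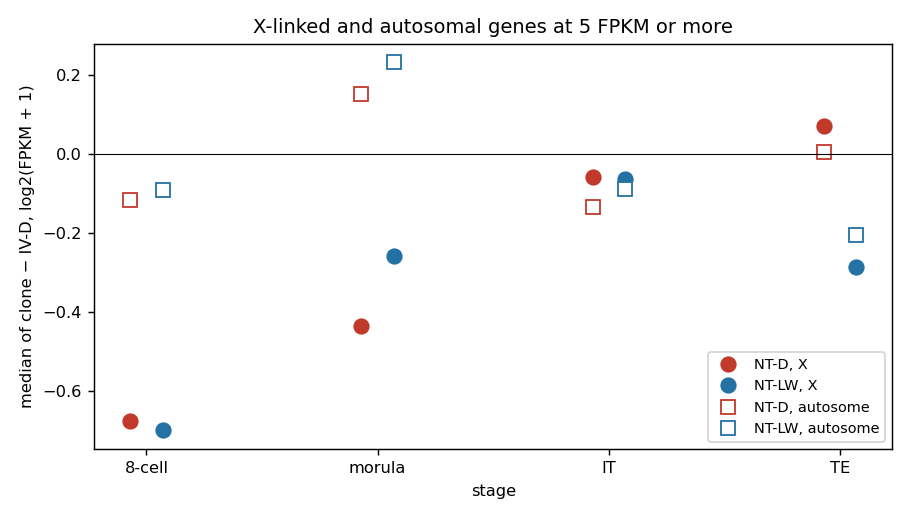
Median difference between each clone and IV-D of the same stage, log2(FPKM + 1), over X-linked (filled circles) and autosomal (open squares) genes at 5 FPKM or more in 1 of the 3 libraries. At 8-cell and morula the X-linked medians lie below the autosomal ones, with -0.44 against 0.15 for NT-D morulae, and in IT they do not.

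Shared calls in the remaining metabolic and regulatory lists are given beside the 4.91% higher and 1.56% lower of all tested genes. Of 14 enzymes of cholesterol synthesis in the table FDFT1, squalene synthase, was higher (6.33, 41.9 and 17.6 FPKM) and NSDHL and ACAT2 (16.7, 6.08 and 7.01) were lower. SQLE, squalene epoxidase, was called in neither clone (2.71, 6.05 and 4.82), with log2 differences of 0.93 and 0.65. None of 48 genes of oxidative phosphorylation and none of 29 proteasome genes was called in both clones, and their medians lay below that of the table, at -0.37 and -0.10 for the former. The mitochondrial genome gave 1 call in 13, ATP8 (284, 0.519 and 33.1), which overlaps ATP6 (32777, 31121 and 19114) and whose count depends on how shared reads were treated.

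Cell identity and chromatin lists held few shared calls, where 4.91% of all tested genes were higher and 1.56% lower in both clones. None of the 13 pluripotency and none of the 13 trophectoderm genes was called the same way in both clones. Counted by clone, 3 of the 6 trophectoderm keratins and effectors were lower in NT-LW, against 4.07% of all tested genes. In NT-D 4 of 9 primitive endoderm genes were higher and 1 lower, against 18.7% and 3.88%. In the set of 38 junction and polarity genes the call was DSC2, a desmosome cadherin (75.1, 28.4 and 15.4 FPKM), and the cytoskeletal actin ACTB, which belongs to no list, was lower as well (95.6, 30.4 and 10.99). At 8-cell DSC2 was at 36.3, 0.843 and 0.831 FPKM and in TE at 149, 137 and 172, so that the clones were lower at the former and not at the latter. ACTB was low in all groups at 8-cell (3.35, 3.57 and 7.86) and not lower in the clones in TE (95.4, 154 and 185). In the set of 40 chromatin genes EZH1, a histone H3 lysine methyltransferase, was higher (1.94, 7.61 and 7.55). DNMT1, the maintenance DNA methyltransferase, was higher in NT-D alone (28.7, 147 and 36.98). Imprinted genes gave 2 calls in 16, the paternally expressed PEG10, higher at 0.774, 5.90 and 6.07, and DIRAS3, lower at 35.2, 12.1 and 8.04. IGF2R, maternally expressed in many mammals, was at 2.40, 2.46 and 1.26. Of 37 cell cycle genes CCND2, a G1 cyclin, was the one called (0.181, 6.15 and 1.98). STK4, a kinase of the Hippo pathway (1.71, 7.01 and 4.78), and FGFR2, a receptor of the primitive endoderm (1.81, 5.53 and 4.93), were higher but not under median-ratio scaling, and BMP4 (0.425, 2.69 and 1.43) was beyond the threshold only in NT-D. Counted over all 21 lists, 465 genes were in the table and 422 reached the minimum level, of which 37 were higher and 8 lower in both clones, beside 4.91% and 1.56% of all tested genes.

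Several of the largest differences lay outside any list. UCHL1, a deubiquitinase of oocytes and neurons, was at 1.30, 158 and 35.6 FPKM and CCDC85A at 0.196, 60.7 and 14.7, both of them abundant in IV-D oocytes (447 and 433). DGKA, a diacylglycerol kinase, was at 2.90, 30.9 and 25.3. MGMT, which removes alkyl groups from DNA, was at 49.9, 244 and 250.04. On the lower side NCL, the nucleolar protein nucleolin, was at 462, 170.4 and 206 with log2 differences of -1.43 and -1.16.

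The same genes were then followed at the other stages. Of the 359 higher genes 126 (35.1%) were also higher in both clones at 8-cell, 58 (16.2%) in IT and 6 (1.67%) in TE, where the shares of all tested genes were 8.95%, 6.13% and 1.68%. Lower in both clones were 9 of them (2.51%) at 8-cell, 21 (5.85%) in IT and 15 (4.18%) in TE, against 13.5%, 10.6% and 2.70% of tested genes. Of the 114 lower genes 67 (58.8%) were also lower at 8-cell, 51 (44.7%) in IT and 26 (22.8%) in TE, against 13.5%, 10.6% and 2.70%. No call at any of the 3 other stages was made in this direction for 197 of the higher and 23 of the lower genes. The number called at all 3 was 4 for the higher and 11 for the lower genes. The clone values were over 2-fold outside the range of the IV-D 8-cell, morula, IT and TE libraries for 52 higher genes (14.5%) and 17 lower genes (14.9%). CDKN1A, FAS, SESN1, KITLG, GPX6, SOD1, PEG10 and ZP4 were among the former, and TYR, ASZ1, NAA11, HORMAD1 and SYCP3 among the latter. This range holds the IV-D morula value by which the genes were picked. The share over all genes was not computed for it, nor for the genes called at none or at all 3 of the other stages. These counts are therefore not read as traits of the members.

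**Figure D5:**
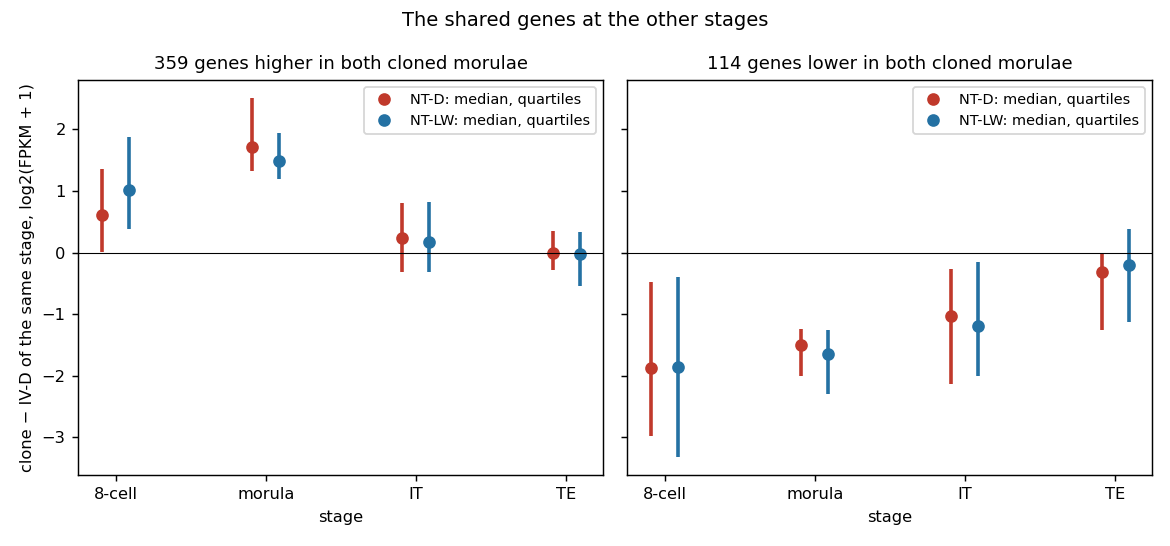
Median (point) and quartiles (line) of the difference between each clone and IV-D of the same stage, log2(FPKM + 1), for the 359 higher genes (left) and the 114 lower genes (right). The median of the higher genes is at 1.71 (NT-D) and 1.48 (NT-LW) at the morula and 0.00 and -0.02 in TE, and that of the lower genes is already at -1.88 and -1.87 at 8-cell.

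Genes at the edge of the call show what the threshold separates. Just inside on the higher side were NT5C2 (1.61, 5.70 and 4.22 FPKM) and SLC36A4 (0.0702, 1.86 and 1.15), and PPIF (37.8, 92.5 and 76.5) was just outside. On the lower side SMPX (12.5, 4.98 and 5.75) and NOX3 (2.14, 0.527 and 0) were just inside, and TUBA1B (495, 249 and 239.6) and FUNDC1 (138, 43.1 and 69.1) just outside. Because 1 is added to each FPKM, a gene under about 1 FPKM in every library could not be called, and folds of low genes are understated.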

How the data were processed

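RNA of pooled embryos was amplified with SMART-Seq v4 and sequenced in pairs. The authors aligned reads with HISAT2 2.0.4 to Sscrofa11.1, counted them per gene with HTSeq 0.9.1 and deposited FPKM, with DESeq also named in the processing notes. How the 8603 genes were chosen, and whether counting used strand, is not given in the sources used here. From the deposited values whole fragments were recovered for all 8603 genes (100%, relative deviation under 1e-09 above 300 fragments), which gave depths of 14952784 to 22991067 fragments over the 23 libraries.

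Symbols came from a table of Ensembl identifiers, which named 7371 genes, and positions and sequence from RefSeq (Sscrofa11.1). Values were compared as log2(FPKM + 1), as deposited, after scaling to a sum of 1000000 and after median-ratio scaling. With 1 library per condition there was no p-value between conditions. The exact binomial tests on fragments given below compared single libraries, at an adjusted p of 0.005. Exact (Clopper-Pearson) 95% intervals on fragments and the floor of 3 fragments cover counting error only, since amplified reads are not independent molecules. The tools were matplotlib 3.10.9, scipy 1.17.1, pandas 2.3.3, numpy 2.4.6 and Python 3.11.15, and the steps were tested on simulated data. The members, the 21 gene lists and the rules were chosen with earlier results of these data known, and 3 further lists (germ cell, early response and interferon response genes) after the morula values were seen. Named genes were the 12 largest stable differences per direction with a symbol and at least 10 FPKM, up to 4 called members per role of a list, a fixed set of 29 genes of which 17 were in the table, the genes next to the threshold, and the 3 largest of the genes called in opposite directions. Others were named after their values were seen, and some genes that these rules pick are not reported here.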

Additional observations from a re-analysis of the deposited data

Results flagged for a closer look

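In 17 of the 7305 genes tested in both comparisons the 2 clones were called in opposite directions from IV-D morulae. Of the 17, 13 were higher in NT-D and lower in NT-LW and 4 were the reverse. Called the same way in both clones were 359 higher (4.91%) and 114 lower (1.56%) genes. The difference between the clones was not tested, since each had 1 library. The 3 largest with at least 10 FPKM were GTF2A1L, a germ cell transcription factor subunit, PDPN, a membrane glycoprotein, and ID3, an inhibitor of helix-loop-helix factors. GTF2A1L was at 10.3 FPKM in IV-D, 62.9 in NT-D and 0.710 in NT-LW morulae, with log2 differences of 2.50 and -2.72. PDPN was at 11.2, 55.3 and 1.38 FPKM in the same order, with differences of 2.20 and -2.36. ID3 was at 5.93, 18.4 and 0.834 FPKM, with differences of 1.49 and -1.92. GTF2A1L and ID3 were oocyte transcripts in IV-D, at 138 and 3405 FPKM, and PDPN was high in IV-D TE, at 208. FST, the activin-binding protein follistatin, was the largest of the 4 reverse cases in NT-LW (20.6, 6.74 and 178 FPKM).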

How the results depend on the processing

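None of the 473 shared calls was called in the opposite direction under sum or median-ratio scaling or by the binomial tests, and the counts moved with the scale. Sum scaling gave 569 genes higher in both clones, a pseudocount of 0.1 gave 672 and a minimum of 5 FPKM 228. Median-ratio scaling gave 193 lower in both, 583 lower in NT-D, 461 lower in NT-LW, 14 lower list members and 105 genes lower at morula and 8-cell. A minimum of 5 FPKM left 931 higher in NT-D and 68 higher at morula and 8-cell. A fold over 3 left 96 higher and 36 lower in both, 684 and 85 in NT-D, 265 and 120 in NT-LW, and 19 and 2 list members. An exact binomial test on fragments, which compares these libraries and not the conditions, called 947 higher in both, 2312 higher in NT-D, and 1529 higher and 466 lower in NT-LW. With trimmed-mean depths it called 638 higher and 249 lower in both, 699 lower in NT-D, 730 lower in NT-LW and 20 lower list members. Leaving out genes highest in IV-D oocytes, 1-cell or 2-cell embryos, an alternative added after the data were seen, gave 175 higher, and leaving out the sex chromosomes, also added, kept both counts within 1.5 times. The cause of these changes was not tested beyond the rule of each setting. No paired analysis was possible because each group had 1 library, and none could be left out. Each IV-D level rests on 1 pool of embryos.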

Other observations

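A few genes of the interferon response were higher in both cloned morulae. The list was written after the values were seen and held 40 genes, of which 16 were in the table, 10 reached the minimum level and 4 were higher in both clones under all scalings, beside 3.3% of all tested genes. Among them MX1, a GTPase that blocks viruses, was at 0.358 FPKM in IV-D, 8.71 in NT-D and 2.91 in NT-LW morulae. IFIT5, which binds viral RNA, was at 0.0442, 4.33 and 2.54 FPKM in the same order and ZC3HAV1, the antiviral zinc finger protein, at 1.09, 8.05 and 6.28. ISG15 (0.270, 0.301 and 0.699), STAT2 (4.27, 4.03 and 3.37) and EIF2AK2 (4.32, 7.59 and 4.29) were not called in either clone, and the median differences over the 16 genes were 0.86 (NT-D) and 0.31 (NT-LW), beside 0.23 and 0.18 over the table. MX1 was an oocyte message in IV-D (44.8 FPKM). A gene of this list could reach the minimum level through the clones in which it was high, and 9 of the 16 were under 1 FPKM in IV-D morulae.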
